A study of Mus musculus with 16 samples.

Results

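The 37 regions of open chromatin nearest to Runx1, Runx2, Runx3 and Cbfb are described here, out of 33773 regions found in 16 ATAC-seq libraries of mouse haematopoietic stem cells (HSCs). ATAC-seq marks open DNA by where a transposase can insert. Peaks of the 16 libraries were merged wherever they overlapped, a region needed a peak in 2 or more libraries to be kept, and it was assigned to the nearest protein-coding gene if its median summit lay within 100 kb of that gene. By this rule 11 regions fell to Runx1, 12 to Runx2, 13 to Runx3 and 1 to Cbfb. The rule used position and the calls pooled over all libraries, not a comparison of groups. Even so, 3 members had peaks in young post libraries alone and passed the 2-library minimum through that group: Runx2 at 128.9 and 207.1 kb and Runx3 at 39.7 kb downstream of the first start site. The share of all 33773 regions with peaks in young post alone is not given here. The count of 3 is thus not read as a trait of these genes.

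The libraries were made from 10000 sorted HSCs each by the Omni-ATAC protocol, and all animals were labelled male. There were 4 groups of 4 libraries. Old post libraries hold HSCs from the pooled marrow of 5 lethally irradiated young BJ recipients, taken 3 months after each had received HSCs of an old donor. Young post libraries were made in the same way from the recipients of young donor HSCs. Old pre libraries hold HSCs of the old donors before transplantation, with 1 B6 mouse aged 24 months per replicate. Young pre libraries hold HSCs of the young donors, with a pool of 3 to 4 B6 mice aged 8 to 12 weeks per replicate. Each transplant used 1000 HSCs with 300000 Sca-1 depleted helper marrow cells of BJ mice, in both post groups alike. The design pairs the post and pre libraries of the same age and number, which come from the same donors. No donor marker is named for the sort after transplantation, so cells of recipient or helper origin cannot be told apart from donor HSCs in the post groups. Post and pre libraries were transposed on different days, so stage and day cannot be told apart.

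Runx1, Runx2 and Runx3 are the mammalian Runt-domain transcription factors, and Cbfb is the partner subunit that has no DNA contact of its own and strengthens their binding to DNA. Runx1 is needed for the first HSCs to emerge from haemogenic endothelium and is a frequent target of mutation in leukaemia. Runx2 is best known as the master factor of bone formation, and Runx3 for its roles in T lymphocytes and sensory neurons. Each Runx gene is known to be read from a distal promoter, P1, and a proximal promoter, P2, which give proteins with different first residues.

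The distal promoters of the 3 Runx genes share a run of sequence, so they are shown before the values. The windows below run from 250 bases before to 50 bases after each start site, 5′ to 3′ on the strand of the gene, as RefSeq gives them for GRCm38.p6. Capitals mark matches to the RUNX motif TGTGGT on either strand, which reads ACCACA on the other strand. Runx1 P1 covers chr16:92826025-92826324 on the minus strand, Runx2 P1 covers chr17:44814578-44814877 on the minus strand, and Runx3 P1 covers chr4:135120395-135120694 on the plus strand.
Runx1 P1: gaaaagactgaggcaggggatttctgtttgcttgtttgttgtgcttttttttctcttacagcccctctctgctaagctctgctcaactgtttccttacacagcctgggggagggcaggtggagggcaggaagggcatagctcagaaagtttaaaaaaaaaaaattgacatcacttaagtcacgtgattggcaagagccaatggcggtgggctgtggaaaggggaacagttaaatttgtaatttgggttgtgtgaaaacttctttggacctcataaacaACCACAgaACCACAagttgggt
Runx2 P1: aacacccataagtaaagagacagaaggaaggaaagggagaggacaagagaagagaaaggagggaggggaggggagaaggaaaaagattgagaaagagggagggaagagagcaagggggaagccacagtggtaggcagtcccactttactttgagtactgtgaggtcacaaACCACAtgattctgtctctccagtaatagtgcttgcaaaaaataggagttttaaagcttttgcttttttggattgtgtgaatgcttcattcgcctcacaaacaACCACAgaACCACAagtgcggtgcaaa
Runx3 P1: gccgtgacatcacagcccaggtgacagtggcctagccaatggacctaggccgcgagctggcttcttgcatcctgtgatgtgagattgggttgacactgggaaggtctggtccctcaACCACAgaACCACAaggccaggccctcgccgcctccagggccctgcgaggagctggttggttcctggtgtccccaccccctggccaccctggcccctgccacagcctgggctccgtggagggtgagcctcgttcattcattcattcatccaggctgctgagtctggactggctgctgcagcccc
The proximal promoter of Runx1, at chr16:92697280-92697579 on the minus strand, holds no such match and is shown for contrast, with no letters in capitals.
Runx1 P2: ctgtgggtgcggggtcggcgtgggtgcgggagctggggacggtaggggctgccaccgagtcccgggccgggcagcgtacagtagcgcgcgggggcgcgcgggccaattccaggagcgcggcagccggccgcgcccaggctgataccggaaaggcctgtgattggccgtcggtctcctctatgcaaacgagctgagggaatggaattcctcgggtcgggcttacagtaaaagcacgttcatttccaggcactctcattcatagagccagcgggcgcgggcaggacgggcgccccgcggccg

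The 3 distal promoters share the run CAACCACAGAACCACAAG, 18 bases with 2 RUNX matches whose first bases lie 8 bases apart. The run starts 27 bases after the start site in Runx1, 22 bases after it in Runx2 and 136 bases before it in Runx3. Among 32619 promoter windows of the RefSeq table, 4 hold this run: those of Runx1, Runx2 and Runx3, and that of the long non-coding RNA Gm16225, whose window on the other strand overlaps Runx3 P1 by 232 bases and so repeats the same DNA. At least 1 RUNX match occurs in 5426 of the 32619 windows (16.6%), and 2 or more occur in 582 (1.78%). The P2 windows of Runx1 and Runx3 and the Cbfb window hold 0 matches. An ETS motif, CCGGAA on either strand, occurs once in Runx1 P2, 106 bases before the start site, and in 15% of all windows. The GATA motif AGATAA (11.2% of all windows, either strand) and the E-box CAGCTG (16.4%, which reads the same on both strands) were found in none of the 6 windows of the 4 genes. A match is a run of letters only, and these data hold no measurement of factor binding.

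The promoters also differed in CpG content, given as the ratio of observed to expected CpG. It was 0.137 in Runx1 P1, 0.143 in Runx2 P1 and 0.264 in Runx3 P1, against 1.01 in both Runx1 P2 and Runx3 P2 and 0.988 in Cbfb. Only 1 start site is listed for Runx2 in the table, so a second Runx2 promoter was not analysed here.

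A peak lay on the window of Runx1 P1 in 16 of 16 libraries, on that of Runx3 P1 in 16 and on that of Cbfb in 16. The Runx1 P2 window carried a peak in 3 of 4 old post, 4 of 4 young post, 3 of 4 old pre and 3 of 4 young pre libraries. The Runx3 P2 window carried one in 3 old post, 4 young post, 1 old pre and 1 young pre library, and the Runx2 P1 window in 2, 4, 2 and 2 libraries of those groups. Both CpG-poor distal promoters of Runx1 and Runx3 were thus called more often than their CpG-rich proximal partners. At Runx1 the libraries without a peak on the P2 window were old post 4, old pre 4 and young pre 4, those with the shortest lists. Among all promoter windows with a ratio under 0.4, 333 of 16673 (2.00%) lay on a region called in all 16 libraries, against 2516 of 6866 (36.6%) with a ratio of 0.8 or more. The CpG classes were set after the values of the 6 windows had been seen, and the table includes long non-coding and predicted genes.

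**Figure D1:**
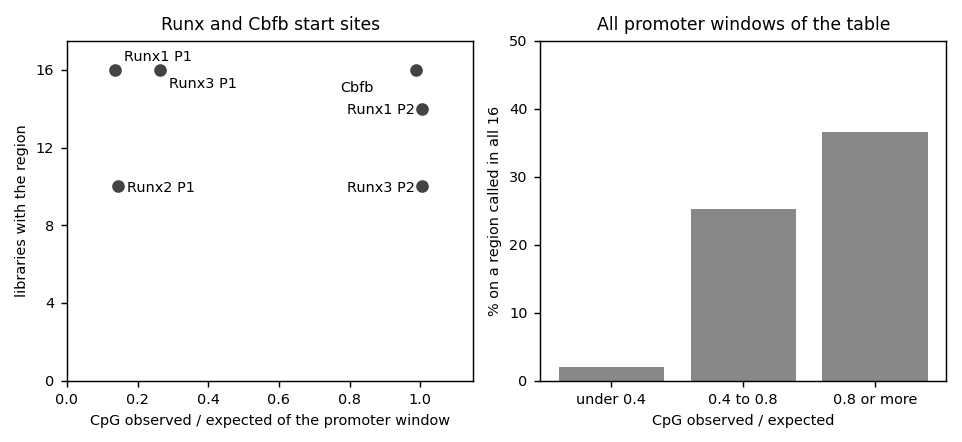
Left, the ratio of observed to expected CpG (x axis) and the number of libraries, of 16, in which the region on the window was called (y axis), with a point for each of the 6 start sites. Right, the percentage of all RefSeq promoter windows that lie on a region called in all 16 libraries, by CpG class. Runx1 P1 and Runx3 P1 sit at the top left, with ratios of 0.137 and 0.264 and a region in 16 libraries, where the class as a whole reaches 2.00%.

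Runx1 spans chr16:92601466-92826074 of GRCm38 on the minus strand, and its start sites lie 128.7 kb apart. Positions are given from the first start site, with plus signs downstream. At P1, the region chr16:92824599-92827112 was called in all libraries, and its summits fell within 12 bp of each other. Peak strength is the authors' own area under the significance curve of a peak, which is not normalised between libraries. Where a library had several peaks in a region, the peak with the largest area was used. The area at Runx1 P1 was 1357, 1718, 2105 and 577 in old post libraries 1 to 4, 2224, 1936, 2113 and 2192 in young post, 1716, 2521, 826 and 276 in old pre, and 2558, 1961, 1294 and 346 in young pre. The lowest areas belonged to the libraries with the shortest lists, old post 4, old pre 3 and 4 and young pre 4, and the 4 groups overlapped. By its place in each library's own list, this peak had a median place of 13.4% from the top.

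The stretch between the Runx1 start sites, which is known to hold an HSC enhancer, carried the strongest peaks of the 37 regions. The region 3.7 kb downstream of P1, chr16:92821544-92823857, was called in 16 of 16 libraries at a median place of 4.00% from the top of the list. Its area was 2576, 3438, 3460 and 1337 in old post, 3710, 3492, 3727 and 3831 in young post, 2161, 3326, 1296 and 488 in old pre, and 3202, 2567, 2100 and 886 in young pre. Young post libraries had the highest areas and lay above all others, and the other 3 groups overlapped. The young post lists are also the longest on average. The region 24.3 kb downstream, chr16:92800409-92802625, was also called in every library, at a median place of 6.50%. Its area was 2075, 2749, 2694 and 1159 in old post, 2943, 2983, 3093 and 3323 in young post, 2255, 2489, 1121 and 440 in old pre, and 2813, 2223, 1881 and 663 in young pre. Old and young libraries overlapped before transplantation at both regions. Young post areas lay above all others at these 2 of the 8 members called in all 16 libraries, and at 12.2% of all 5262 such regions. Whether either region is the known enhancer was not tested. A weaker region in this stretch, 38.9 kb downstream (chr16:92786660-92787460), was called in 3 old post, 4 young post, 2 old pre and 3 young pre libraries, and lacked a peak in old post 4, old pre 3 and 4 and young pre 4. Its area where called was 580, 723 and 766 in old post 1 to 3, 735 to 955 in young post, 458 and 544 in old pre 1 and 2, and 697, 659 and 455 in young pre 1 to 3.

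At Runx1 P2 the region chr16:92696673-92699088 was called in 14 libraries, all but old pre 4 and young pre 4, at a median place of 13.4%. Its area was 1460, 1757, 1869 and 266 in old post, 2157, 2037, 2049 and 2592 in young post, 1709, 2295 and 710 in old pre 1 to 3, and 2296, 1431 and 661 in young pre 1 to 3. Old post 4 had a peak in the region but not on the promoter window itself. Beyond P2, the region 205.2 kb downstream (chr16:92620527-92622215) was called in all 16 libraries, at a median place of 14.1%. The 2 regions at 172.1 and 181.1 kb downstream were weaker, with median places of 65.3% and 72.1%. The region at 172.1 kb (chr16:92653826-92654241) was called in 3 old post, 4 young post, 3 old pre and 3 young pre libraries. The region at 181.1 kb (chr16:92644547-92645382) was called in 2 old post, 4 young post, 2 old pre and 2 young pre libraries, with areas of 342 and 440 in old post 2 and 3, 316 to 415 in young post, 300 and 584 in old pre 1 and 2, and 360 and 254 in young pre 1 and 3.

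Upstream of P1 lay 3 weaker regions, 42.7, 58.2 and 78.1 kb away, with median places of 74.7%, 53.9% and 67.2%. The nearest, chr16:92868440-92868891, had areas of 220, 335 and 275 in old post 1 to 3, 451 to 500 in young post, 219 and 332 in old pre 1 and 2, and 307, 330 and 217 in young pre 1 to 3. The middle region, chr16:92883696-92884616, had areas of 260, 619, 683 and 216 in old post, 881 to 979 in young post, 438 and 501 in old pre 1 and 2, and 601, 206 and 320 in young pre 1 to 3. The far region, chr16:92903813-92904379, had areas of 213, 335 and 524 in old post 1 to 3, 402 to 559 in young post, 260 and 543 in old pre 1 and 2, and 419, 367 and 309 in young pre 1 to 3. All 3 lacked a peak in old pre 3, old pre 4 and young pre 4, and the nearest and the farthest also in old post 4. No Runx1 region was called in fewer than 10 libraries.

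**Figure D2:**
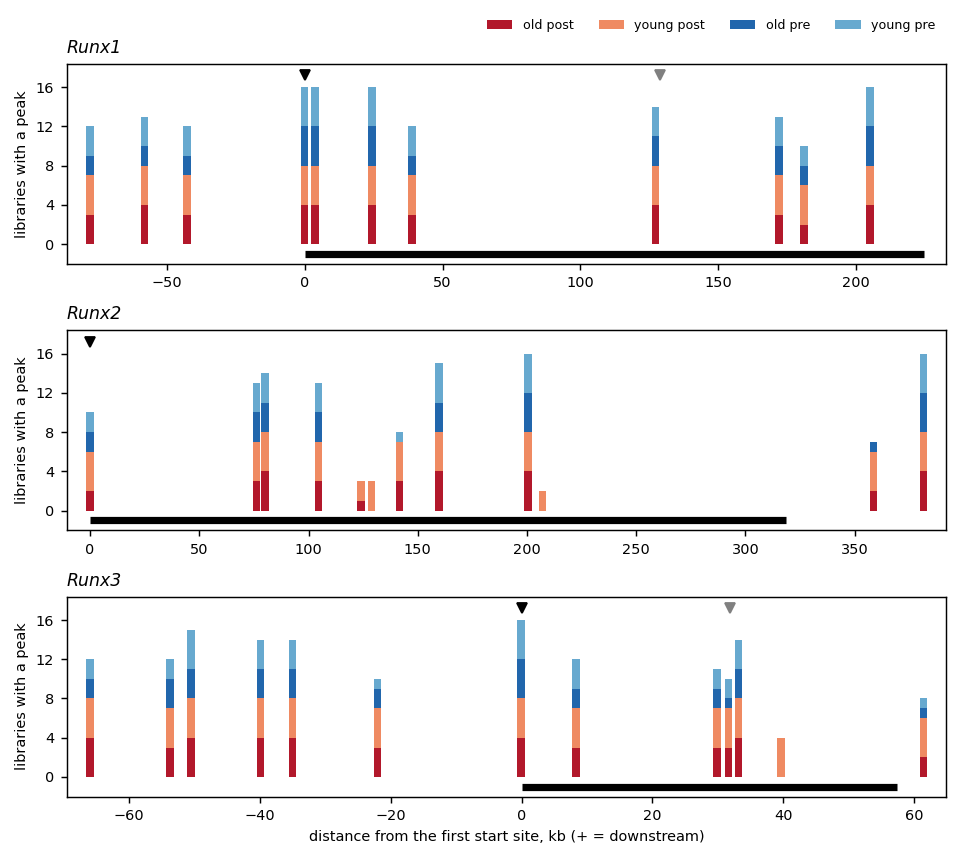
Number of libraries with a peak (y axis, stacked by group, at most 16) at each region of Runx1, Runx2 and Runx3, by distance in kb from the first start site (x axis, positive downstream). The black bar is the gene, the black triangle the first start site and the grey triangle the second. Of the regions that reach 16, 4 are at Runx1, 2 at Runx2 and 1 at Runx3.

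Runx2 spans chr17:44495987-44814797 on the minus strand, and its regions were called least often of the 3 Runx genes, in a median of 11.5 libraries, against 13 for Runx1 and 12 for Runx3. Its P1 region, chr17:44814061-44815334, was called in 10 libraries at a median place of 82.4%, in the weak part of the lists. Old post 2 and 3 had areas of 331 and 344, young post 318, 247, 211 and 210, old pre 1 and 2 557 and 776, and young pre 1 and 2 261 and 213. The 2 highest areas were thus from old pre libraries, which placed the peak at 53.5% and 40.9% of their lists, against 75.4% and 74.1% in old post 2 and 3, 77.9% to 97.5% in young post, and 87.0% and 96.2% in young pre 1 and 2. Every exact test of the calls of this region, two-sided, gave p = 1.

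Within Runx2 the widest of the 37 regions, 3360 bp at chr17:44733738-44737097, lay 80.0 kb downstream of the start site and was called in 4 old post, 4 young post, 3 old pre and 3 young pre libraries. Its area was 1006, 915, 1961 and 245 in old post, 2434, 2523, 2280 and 2275 in young post, 2274, 2032 and 535 in old pre 1 to 3, and 2535, 807 and 617 in young pre 1 to 3. Old post 1 and 2 placed it at 33.1% and 37.2% of their lists, against 6.32% and 10.9% in old pre 1 and 2 from the same donors. The other donors went the other way, with old post 3 at 12.6%, against 49.8% in old pre 3, and old post 4 at 87.3%, against no peak in old pre 4. The peaks compared were of unlike width, 1205 and 1337 bp in old post 1 and 2 against 3000 and 2451 bp in old pre 1 and 2. In old post 3 the peak was 2404 bp wide, against 965 bp in old pre 3. A place can thus belong to a peak on part of the region. These lists differ in length, and the places were not tested. The 2 Runx2 regions called in all 16 libraries lay within the gene 200.4 kb downstream (chr17:44613408-44615301, median place 21.9%) and 63.0 kb beyond its far end (chr17:44432233-44433414, 381.7 kb downstream, median place 21.1%). A further 3 regions within the gene were called in 13 or more libraries, at 76.2 kb (chr17:44737214-44738827), 104.6 kb (chr17:44709474-44710702) and 159.8 kb (chr17:44653862-44655473) downstream.

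The region with the smallest p of the 37 lay in Runx2, 141.7 kb downstream at chr17:44672122-44673162. It had areas of 225, 539 and 604 in old post 1 to 3, 778, 762, 845 and 912 in young post, and 398 in young pre 1, and no peak in old post 4, any old pre library or young pre 2 to 4. It was thus called in 3 old post, 4 young post, 0 old pre and 1 young pre library. The exact test, two-sided and conditioned on donor pairs, gave p = 0.0709 for old post against old pre and p = 0.0928 for post against pre over both ages, each with an adjusted p of 1. Without the donor pairs p was 0.0321 and 0.0379, and neither passed adjustment. The remaining 4 Runx2 regions were weak and rarely called. At 358.8 kb downstream (chr17:44455767-44455961) areas were 235 and 221 in old post 2 and 3, 225 to 269 in young post and 211 in old pre 2, with no peak in young pre. At 128.9 kb (chr17:44685576-44685829) they were 207, 215 and 245 in young post 2 to 4, with no peak in the other 3 groups. At 124.1 kb (chr17:44690479-44691030) they were 236 in old post 3 and 295 and 261 in young post 3 and 4. The region at 207.1 kb (chr17:44607447-44607788) was called in 2 young post libraries. These areas are close to 200, the smallest in the deposited lists, so a missing call is not a measure of closed chromatin.

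Runx3 spans chr4:135120645-135177990 on the plus strand, with start sites 31.9 kb apart. Its P1 region, chr4:135119794-135121216, had the narrowest range of places among the 8 members called in all 16 libraries, from 9.46% to 27.8% of the list in all 16 libraries. The area was 1741, 2123, 2230 and 1037 in old post, 2232, 2253, 2229 and 2250 in young post, 1610, 1841, 1034 and 512 in old pre, and 1796, 1400, 1203 and 649 in young pre. Young post values were the most alike, from 2229 to 2253, with old post 3 inside that range and the other libraries below it. The old post, old pre and young pre groups overlapped. The P2 region, chr4:135151460-135152552, was called in 3 old post, 4 young post, 1 old pre and 2 young pre libraries at a median place of 74.6%. Its area was 342, 285 and 309 in old post 1 to 3, 464, 322, 483 and 418 in young post, 252 in old pre 2, and 392 and 318 in young pre 1 and 2. The exact test gave p = 0.185 for old post against old pre, p = 0.197 for post against pre and p = 0.220 for old pre against young pre, with adjusted p of 0.937 to 1. A stronger region lay just past P2, 33.2 kb downstream of P1 (chr4:135152846-135154423), called in 4 old post, 4 young post, 3 old pre and 3 young pre libraries at a median place of 32.9%.

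Of the 13 Runx3 regions, 6 lay upstream of P1, at 22.0, 35.0, 40.0, 50.6, 53.7 and 66.0 kb. The region at 22.0 kb, chr4:135097829-135098940, had areas of 872, 989 and 1288 in old post 1 to 3, 1173, 1341, 1405 and 1408 in young post, 259 and 815 in old pre 1 and 2, and 689 in young pre 1. Areas where called were higher in the post groups, with each post value above both old pre values and the young pre value. The areas are not normalised between libraries, post lists were longer on average, and this difference was not tested. Every post peak lay above every pre peak at 3 of the 31 members called in each group, all at Runx3 (22.0 and 53.7 kb upstream and 61.5 kb downstream), and at 2.31% of all 24545 such regions. The region at 66.0 kb, chr4:135053756-135054983, had areas of 406, 568, 728 and 256 in old post, 638 to 831 in young post, 580 and 712 in old pre 1 and 2, and 556 and 275 in young pre 1 and 3. The region at 53.7 kb, chr4:135066806-135067426, had areas of 583, 651 and 542 in old post 1 to 3, 525 to 661 in young post, 280, 502 and 263 in old pre 1 to 3, and 305 and 307 in young pre 1 and 3. For old against young over both stages the exact test gave p = 0.240 at each of these 2 regions (adjusted p = 1), and at 53.7 kb it gave p = 0.217 for old pre against young pre (adjusted p = 0.937). The regions at 35.0 kb (chr4:135085353-135085948), 40.0 kb (chr4:135079854-135081029) and 50.6 kb (chr4:135069498-135070538) were called in 14, 14 and 15 libraries.

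A region called in all libraries of 1 group and none of the others lay at Runx3, 39.7 kb downstream of P1 at chr4:135160080-135160475. The share of all regions with this pattern is not given here, and the shares given below set young post against 1 other group at a time. Its area was 248, 220, 301 and 255 in young post 1 to 4, and no other library had a peak there, so it was called in 0 old post, 4 young post, 0 old pre and 0 young pre libraries. Its peaks were weak, at 80.1% to 95.4% of the young post lists, which were the longest of the 4 groups on average. With each library weighted by its own rate of calls, the exact test gave p = 0.148 for old post against young post (adjusted p = 0.824) and p = 0.164 for old against young over both stages (adjusted p = 1). The remaining Runx3 regions lay at 8.4 kb (chr4:135128534-135129321), 29.9 kb (chr4:135150295-135151025) and 61.5 kb (chr4:135181785-135182358), the last of these 4.13 kb past the gene, and were called in 12, 11 and 8 libraries.

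Cbfb, at chr8:105170674-105217989, had a single region on its CpG-rich promoter, chr8:105170004-105171844, called in all 16 libraries at a median place of 17.7%. Its area was 1661, 1712, 1556 and 683 in old post, 1815, 1714, 1691 and 1881 in young post, 1933, 1493, 1074 and 294 in old pre, and 2196, 1340, 1240 and 644 in young pre. The 4 groups overlapped.

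**Figure D3:**
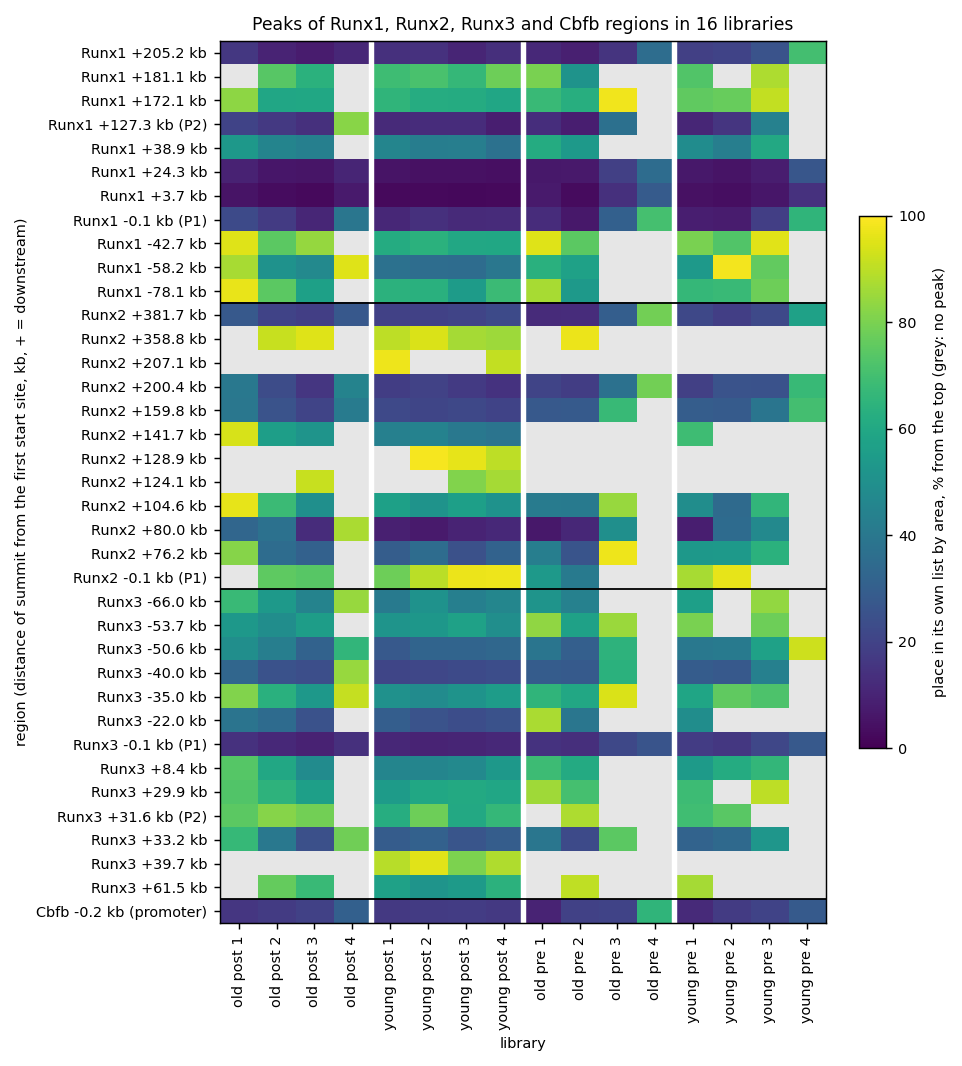
The 37 regions (rows, by gene and position) in the 16 libraries (columns, by group). Colour gives the place of the peak in its own library's list by area, in percent from the top, and grey marks no peak. Grey is most frequent in old pre 4 with 8 regions called, young pre 4 with 10 and old post 4 with 17, the 3 libraries with the shortest lists.

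Over the 37 regions, members were wider and more often within genes than the open regions of the genome as a whole. The median width was 1093 bp, against 830 bp over all 33773 regions, and 56.8% lay within genes, against 36.9%. Regions within 1 kb of a gene end made up 10.8%, against 36.1%. The rule itself favours genes with many regions in long spans: Runx1 had 11, Runx2 12 and Runx3 13 regions, against a median of 2 over 13891 genes with a region, and 123, 88 and 67 genes had more than Runx1, Runx2 and Runx3 in that order. Regions called in all 16 libraries numbered 8 of 37 (21.6%), against 5262 of 33773 (15.6%).

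The number of the 37 regions called was 29, 33, 34 and 17 in old post, 35, 35, 36 and 37 in young post, 29, 32, 19 and 8 in old pre, and 32, 25, 27 and 10 in young pre. Means were 28.25 ± 7.80 in old post, 35.75 ± 0.957 in young post, 22 ± 10.9 in old pre and 23.5 ± 9.47 in young pre (SD, n = 4 each). Young post libraries lay above all others, and the other 3 groups overlapped. Read depth is not given in the files, and the number of peaks per list stood in for it: 14030 to 31025 in old post, 30807 to 32557 in young post, 5711 to 30541 in old pre and 9636 to 28323 in young pre. From each library's own rate of calls over all regions, means of 27.7, 34.4, 23.4 and 24.0 of the 37 regions were expected in old post, young post, old pre and young pre. The difference, called minus expected, averaged 0.54 ± 0.40 in old post, 1.34 ± 0.97 in young post, -1.36 ± 1.05 in old pre and -0.52 ± 1.14 in young pre (SD, n = 4 each). Against the expected number, the means of all 4 groups thus lay within -1.36 and 1.34 regions, and within donor pairs the value was higher after than before transplantation in 8 of 8 pairs, by 0.54 to 3.20 regions. This was not tested, since the members were chosen with results known, and how many other genes show the same was not counted. The young post values include the 3 members called in young post alone. Those members passed the 2-library minimum through that group and could only raise its counts and its mean of called minus expected. In a single library without the peak they lowered called minus expected, as in young post 1 at Runx2 at 128.9 kb (0.554 expected). They also lowered it in the other 3 groups, which have no call there, and these values enter the donor pairs. The raw means differed by -7.5 regions for old post minus young post, -1.5 for old pre minus young pre, 6.25 for old post minus old pre and 12.25 for young post minus young pre. Leaving out single libraries changed the size of these raw differences, but changed the sign of old pre minus young pre only. Without old post 4 the first was -3.75 and the third 10, without old pre 2 the third was 9.58, and without old pre 4 it was 1.58. The difference of old pre minus young pre was 3.17 without old pre 4, 1.33 without young pre 1 and between -6 and -0.33 without any other library of these groups, and that of young post minus young pre was 7.75 without young pre 4.

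By gene, counts in the shortest lists lay near the numbers expected from each library's rate of calls, given here in brackets. Runx1 kept 6 of 11 regions in old post 4 (5.50), 4 in old pre 4 (4.00) and 4 in young pre 4 (4.08). Runx3 kept 6 of 13 in old post 4 (5.07), 1 in old pre 4 (1.02) and 2 in young pre 4 (2.15). Runx2 kept 4 of 12 in old post 4 (4.35), 2 in old pre 4 (2.02) and 3 in young pre 4 (3.05). Every young post library kept 11 regions of Runx1 (mean expected 10.97) and 13 of Runx3 (12.4). Young post libraries kept 10 to 12 regions of Runx2 (9.99). Of the 29 members not called in all libraries, 18 (62.1%) were called exactly in the libraries with the highest rates of calls, against 49.3% of all such regions.

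**Figure D4:**
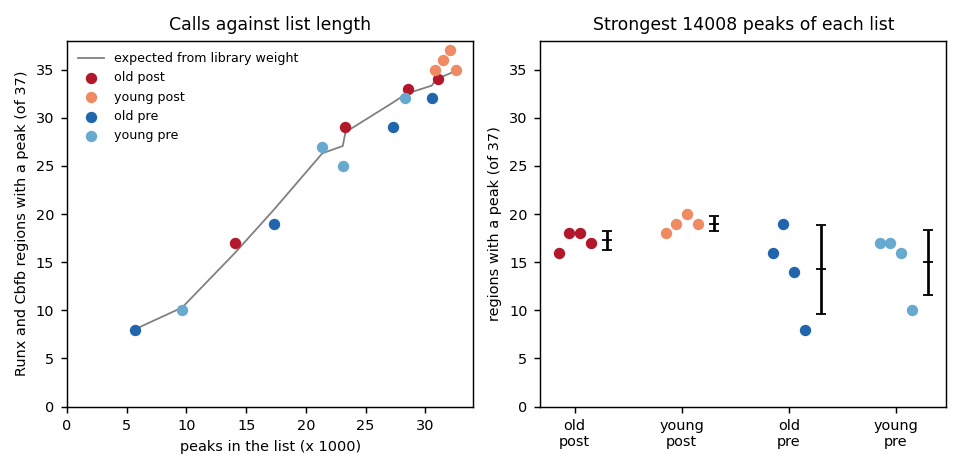
Left, the number of the 37 regions called (y axis) against the number of peaks in the list (x axis, in units of 1000), with a point per library coloured by group and a line for the number expected from the library's rate of calls. Right, the number of the 37 regions among the strongest 14008 peaks of each list (y axis) by group, with a point per library and the mean ± SD (n = 4 each). The raw counts follow list length, from 8 regions in the list of 5711 peaks to 35 in that of 32557.

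Transplanted and aged HSCs were compared region by region, the question the paired design poses. No region of Runx1, Runx2, Runx3 or Cbfb passed in any of the 6 comparisons by the exact test with Benjamini-Hochberg adjustment at 0.05. For old post against young post, 0 of 3 members tested passed, against 0.0387% of all 5163 regions tested. Among these 3, Runx2 at 128.9 kb and Runx3 at 39.7 kb entered through young post alone, so their tests support nothing. For old pre against young pre, 0 of 12 passed, against 0% of 9407. For old post against old pre, 0 of 12 passed, against 0.00963% of 10384. For young post against young pre, 0 of 6 passed, against 0.586% of 8867, and every p of these 6 was 1. All 52 regions of the genome that passed here were lower in young post, and 2 to 47 passed when 1 library was left out, with 2 without young pre 2 or young pre 3, 5 without young post 2 or 3, and 6 without young post 1 or young pre 1. For old against young over both stages, 0 of 15 passed, against 0.27% of 15182 (38 regions higher in old and 3 lower), and for post against pre over both ages 0 of 15, against 0.257%. The count of members at an unadjusted p under 0.05 was also 0 in each comparison, against 0.876% to 4.56% of all regions tested. With so few regions passing in the whole series, a count of 0 is near the background.

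Of the 37 regions, 18 could be tested in at least 1 comparison and 19, the most and least often called, in none. Of the 63 exact tests, 51 gave p = 1. The totals of the members tested allowed an unadjusted p under 0.05 in each comparison, but only when the more favourable direction was taken. Runx2 at 358.8 kb and Runx3 at 39.7 kb had 4 young post and 0 young pre calls, the largest gain possible. Neither gave p under 0.05 by the exact test for young post against young pre, so the weighted test could not detect such a gain. Regions that passed adjustment anywhere had unadjusted p of at most 9.85e-05. In the comparison of age over both stages, post and pre libraries of a donor entered as separate libraries. Members called on day 5 numbered 34 in old post 3 alone and a mean of 35 in 2 young post libraries, with 31025 peaks and a mean of 31682. On day 6 they numbered 17 in old post 4 alone and a mean of 36.5 in 2 young post libraries, with 14030 peaks and a mean of 31731.5. On day 2 the means were 13.5 in 2 old pre and 28 in 3 young pre libraries, with mean lists of 11516.5 and 24258.3 peaks. No other day held both ages. With day as a stratum over the days that held both ages, the exact test passed 0 members, with a smallest p of 0.253 for old post against young post, 0.221 for old pre against young pre and 0.221 for old against young.

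Other tests gave other counts. Fisher's exact test without library weights passed 0 members and 0 regions in each of the 6 comparisons. With limma on the calls, also without library weights, and Benjamini-Hochberg adjustment, old post was lower than young post at 2 of 3 members, Runx2 at 128.9 kb downstream (adjusted p = 0.00434) and Runx3 at 39.7 kb (adjusted p = 2.82e-07), against 39.6% of all 5163 regions. Both are called in young post alone and could differ in this direction only, here and in the other comparisons that include young post, so their p values support nothing. Young post was higher than young pre at 6 of 6 members, against 80.5% of all 8867 regions. Post was higher than pre over both ages at 3 of 15 members, 2 at Runx2 and 1 at Runx3, against 22.7%. Old was lower than young over both stages at 1 of 15, Runx3 at 39.7 kb, against 2.55%, while old post against old pre and old pre against young pre gave 0 members, against 1.07% higher and 0.27% lower in the first of these and 0% in the second. No member passed in the opposite direction by limma, against 0.387% of regions higher in old post than young post, 0.553% lower in young post than young pre, 0.211% lower in post and 0.0329% higher in old.

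All-or-none calls were also counted without a test. Young post had all 4 and old post 0 libraries at 1 member, Runx3 at 39.7 kb downstream, against 1.52% of all regions. Young post had all 4 and young pre 0 libraries at 2 members, Runx2 at 358.8 kb and Runx3 at 39.7 kb, against 7.13% of all regions. Runx3 at 39.7 kb entered through young post alone, so its direction in both counts was fixed. No member was all-or-none in old post against old pre (0.00888% of all regions higher in old post, 0.00296% lower), in old pre against young pre (0% either way), or in either comparison of 8 with 8 libraries (0% for age, 0.00296% higher in post). None was called in all 4 young pre and 0 young post libraries, against 0.00296%.

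Lists of equal length gave another view of the same peaks. Among the strongest 14008 peaks of each list, or the whole list where shorter, the members numbered 16, 18, 18 and 17 in old post, 18, 19, 20 and 19 in young post, 16, 19, 14 and 8 in old pre, and 17, 17, 16 and 10 in young pre. Means were 17.25 ± 0.957 in old post, 19 ± 0.816 in young post, 14.25 ± 4.65 in old pre and 15 ± 3.37 in young pre (SD, n = 4 each). Old pre 4 and young pre 4 have shorter lists and gave the lowest counts. Among the strongest 5687 peaks of every list the means were 7.25 ± 0.5 in old post, 8.5 ± 0.577 in young post, 8.5 ± 1.29 in old pre and 7.5 ± 1.73 in young pre, and the ranges of all 4 groups overlapped.

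At that depth 10 members remained in any library: the 8 called in all 16 full lists, Runx1 at P2 and Runx2 at 80.0 kb downstream. Runx1 at 3.7 and 24.3 kb and Runx3 P1 were among them in all 16 libraries. Runx2 at 381.7 kb was among them in 1 old post, 0 young post, 4 old pre and 3 young pre libraries. Runx2 at 80.0 kb was among them in 1 old post, 4 young post, 2 old pre and 1 young pre library. At the length of 14008, the Runx3 region 22.0 kb upstream was present in 3 old post, 4 young post, 1 old pre and 1 young pre library, and the Runx2 region at 141.7 kb in 0 old post, 3 young post, 0 old pre and 0 young pre libraries. The Runx1 region at 38.9 kb was present in 3 old post, 3 young post, 0 old pre and 3 young pre libraries, and that at 58.2 kb upstream in 1 old post, 4 young post, 0 old pre and 0 young pre libraries. The Runx2 P1 region was present in 1 old pre library and in no library of the other groups. Runx2 at 104.6 kb was present in 0 old post, 0 young post, 2 old pre and 2 young pre libraries. These counts were not tested as such. With regions rebuilt from lists cut to the shortest, the exact test of post against pre over both ages passed 0 members. Their smallest p by that test was 0.0108, and their smallest adjusted p 0.478. In bulk HSCs, a region open in fewer cells and a region less open in each cell cannot be told apart.

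Genes that work with the Runx factors were described by the same counts. A list of 7 genes chosen as partners of Runx1 in blood cells (Gata2, Tal1, Lmo2, Lyl1, Erg, Fli1 and Spi1) had 51 regions. They were called at 66.7% of all possible calls in old post, 93.1% in young post, 56.9% in old pre and 60.3% in young pre. For the 37 regions these percentages were 76.4%, 96.6%, 59.5% and 63.5%, and over all 33773 regions they were 67.1%, 88.5%, 55.5% and 56.2%. Erg, an ETS factor needed by HSCs, had 14 regions with 35, 51, 31 and 31 calls of 56 in old post, young post, old pre and young pre. Fli1, its close relative, had 12 regions with 22, 44, 19 and 22 calls of 48, and none called in all 16 libraries. Lyl1, a bHLH factor, had 1 region called in every library. Regions called in all 16 libraries were 7 of 51 (13.7%) for these partners.

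Cofactors of the Runx proteins (16 genes, 61 regions) stood at 72.1% in old post, 90.2% in young post, 63.5% in old pre and 60.7% in young pre, with 15 regions (24.6%) called in all libraries. Among them, Cbfa2t3, a corepressor of the ETO family, had 11 regions of which 5 were called in all libraries, and Tle3, a Groucho corepressor, had 14 regions of which 2 were. Known Runx targets (18 genes) had 50 regions at 16 of the genes, with none at Mpo and Il7r, and stood at 69%, 95.5%, 57.5% and 59% in old post, young post, old pre and young pre. Pf4, a platelet chemokine gene, and Myh10, a myosin gene silenced by RUNX1 in megakaryocytes, each had 1 region called in all libraries. By the exact test 0 regions of these 3 lists passed the threshold in any of the 6 comparisons, at the percentages of all regions given above.

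The calls were also checked against cell type markers. Of 10 HSC marker genes, 9 had a region (64 in all), with none at Tek, called at 56.6% in old post, 79.7% in young post, 59.4% in old pre and 53.1% in young pre. Of the T cell markers Cd3e, Cd3g, Cd4 and Cd8a had none, and the other 2 had 2 regions, called at 100%, 100%, 75% and 87.5% in old post, young post, old pre and young pre. Of the granulocyte and monocyte markers Elane, Mpo, Ctsg, Ly6g and S100a8 had none, and the other 2 had 3 regions, at 75%, 100%, 33.3% and 33.3% in the same groups. The NK cell markers had 9 regions at 2 of 4 genes, 3 of them called in all libraries, at 77.8%, 83.3%, 72.2% and 63.9%. The erythroid markers had 4 regions at 3 of 5 genes, with none at Hba-a1 and Alas2, at 81.2%, 100%, 62.5% and 68.8%. The endothelial and stromal markers had 19 regions at 6 of 6 genes, called at 65.8% in old post, 89.5% in young post, 50% in old pre and 51.3% in young pre, close to the percentages over all regions given above. Their part in the calls at Runx2, a gene of bone-forming cells, was not tested.

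The pattern of Runx1 over the libraries was set beside that of other genes. A gene's score in a library was the share of its regions called minus the share expected from the library's rate of calls, over regions not called in all 16 libraries. Among 1265 genes with at least 5 such regions, the highest Pearson r with Runx1 over 16 libraries belonged to Ahnak (0.86), Pik3ap1 (0.86), Chd9 (0.82), Mcur1 (0.76) and Prkcd (0.74). The other members were less like it, with r of -0.20 for Runx2 and 0.046 for Runx3, and r between Runx2 and Runx3 was 0.23. The Runx1 score ran from -22.7 percentage points in old pre 3 to 15.9 in young pre 3, 2 libraries transposed on the same day, and the correlations are given with no p because the genes share these libraries.

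The members farthest from their genes were the Runx1 region at 78.1 kb, the Runx3 region at 66.0 kb and the Runx2 region at 63.0 kb, called in 12, 12 and 16 libraries. Just outside the rule, 7 further regions had Runx1 as nearest gene at more than 100 kb upstream. The closest, 101.8 kb away, was called in 1 old post, 4 young post, 0 old pre and 0 young pre libraries. Those at 202.8 and 371.4 kb were each called in 4 old post, 4 young post, 3 old pre and 3 young pre libraries. A region at 299.4 kb was called in 2 old pre libraries and no others, and one at 303.7 kb in 2 old post, 2 young post, 2 old pre and 0 young pre libraries. Regions seen in a single library near the 4 genes, which the rule leaves out, numbered 5.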

How the data were processed

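ATAC-seq of sorted mouse HSCs was deposited as a peak list per library. Per the submitters' processing notes, FastQC, MultiQC, Trim Galore, cutadapt, Genrich, ChIPseeker, featureCounts and DESeq2 were used with build mm10; the aligner is not given in the sources used here, nor are versions or settings. The deposited lists hold the authors' scores (column 5, and the area of a peak in column 7) and their -log10 p and -log10 q at the summit. None is normalised between libraries, so the presence of a peak was compared, and areas describe peaks within a list. No read depth is given in the files, so no counting interval is given.

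Of 387029 peaks, 393 (0.102%) on unplaced scaffolds were left out. Peaks overlapping by at least 1 bp were merged, and merged regions with a peak in 2 or more libraries were assigned to the nearest of 21631 RefSeq protein-coding genes of GRCm38. Libraries were weighted by their log odds of a call (a Rasch model over all regions). Calls per region were compared by a two-sided exact conditional test, within donor pairs for post against pre, with Benjamini-Hochberg adjustment at 0.05 over all regions with 4 to 12 calls where 16 libraries entered and 3 to 5 where 8 did. Replicates are separate donors or donor pools. The pairing comes from the series design. Between post and pre libraries of the same number, deviations from the group means correlated at -0.067 to 0.0597. The members and lists were chosen with earlier results of these data known. Regions given in full were those at gene ends, the 5 with the smallest p per gene, and all-or-none regions. At Runx1 and Runx2 only 5 regions each could be tested, so p made no choice among them, and 0 tests at Runx1 gave p under 0.05. Other regions were chosen after their values were seen. The alternatives were limma 3.58.1 in R 4.3.3, a Fisher test and other filters, weights, list lengths and libraries. The result of 1 marker list is not reported here. Other work used Python 3.11.15, numpy 2.4.6, pandas 2.3.3, scipy 1.17.1 and matplotlib 3.10.9.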

Additional observations from a re-analysis of the deposited data

Results flagged for a closer look

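The number of Runx1 regions called in young pre 4 stood apart from the other young pre libraries. It was 4 of 11, against 10 to 11 in young pre 1 to 3, a gap of 0.857 of the group's range. Young pre 4 has 9636 peaks in its list, the fewest of its group, and the number expected from its rate of calls is 4.08. The number of Runx3 regions called in old post 4 also stood apart, with 6 of 13, against 11 to 12 in old post 1 to 3, a gap of 0.833 of the range. That list holds 14030 peaks, the fewest of its group, and 5.07 regions are expected from it. Both exceed the limit of Dixon's test at the 95% level. Of 14 groups of counts checked 2 passed it, and chance flags about 1 in 20 groups.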

How the results depend on the processing

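The number of members past the threshold was recomputed under 131 alternatives over the 6 comparisons and stayed at 0 in 127 of them. The 4 exceptions were all from limma: 2 for old post against young post, 6 for young post against young pre, 1 for old against young and 3 for post against pre. Fisher's exact test, also without library weights, gave 0 in each comparison. With 4 against 4 libraries Fisher's test can give no p below 0.0286. Members reached that p for old post against young post (smallest adjusted p = 0.271) and young post against young pre (0.105). A count of 0 by this test thus carries little weight in any comparison of 4 with 4 libraries. Leaving out any 1 library gave 0 to 0 members. With the replicate number as a block for old against young, 0 members passed, as did 0 without the donor pairing for post against pre. Over all regions the count past the threshold moved far more: under the replicate block 3 regions passed for old against young over both stages, against 41 without it, and without the donor pairs 66 passed for young post against young pre, against 52 with them. It reached 7183 under limma for young post against young pre. The difference in mean members called was -7.5 for old post minus young post, and -1.25 with all lists cut to the shortest. For old post minus old pre it was 6.25, and reversed to -1.25 at the shortest length. For old pre minus young pre it was -1.5, and reversed to 1 at the shortest length, to 3.17 without old pre 4 and to 1.33 without young pre 1. For young post minus young pre it was 12.25, against 1 at the shortest and 4 at the third shortest length. Without 1 library it ranged from -9.42 to -3.75, 1.58 to 10, -6 to 3.17 and 7.75 to 15.1 in the order just given. Shorter lists hold fewer peaks by construction; other causes were not tested. Weights from the compared libraries alone were chosen after seeing the data. Depth is unknown, so a weak region without a peak is not shown to be closed.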
